A study of Rattus norvegicus with 24 samples.

Results

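INS-1E cells, a rat insulinoma line that makes insulin and stands in for the pancreatic beta cell, were compared 12 h after a cytokine cocktail given together with BRD0476 and after vehicle alone. The cocktail held IL-1beta at 10 ng/ml, interferon-gamma at 50 ng/ml and TNF-alpha at 25 ng/ml, and BRD0476, a small molecule described as protecting beta cells from cytokine-induced death, was used at 10 uM. The comparison takes 6 of the 24 arrays of the study, chosen by their labels: 3 of cytokine-plus-BRD0476 cells and 3 of untreated cells, which received DMSO and no cytokines. It asks how far cells treated with the compound stayed from untreated cells. Cytokines with DMSO for 12 h, BRD0476 alone for 12 h, and the cytokine-plus-BRD0476 and untreated groups at 6 h, with 3 arrays each, are given beside it where they place a value. INS-1E is an established line that grows without the other islet cells, and the labels do not say whether the 3 arrays of a group came from separate cultures, so p-values measure the spread between these arrays.

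Interferon-gamma binds its receptor, the JAK kinases then phosphorylate STAT factors, and these bind GAS elements and switch on Irf1, whose protein in turn acts through interferon-stimulated response elements. IL-1beta and TNF-alpha release NF-κB from its inhibitors, and NF-κB raises chemokines, adhesion molecules and its own inhibitors. In beta cells the combined signal is known to lower genes of beta-cell identity and secretion and to end in cell death.

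The promoters of 5 genes that rose are shown because they carry the letters that these 2 routes are known to read. They come from RefSeq on build GRCr8, from 250 bases before to 50 bases after the start site, written in the gene's own direction. Capitals mark matches on either strand to GAAA, any 2 bases and GAAA for the interferon-stimulated response element, to TTCNNNGAA for GAS, or to GGG, any 2 bases and TTTCC for NF-κB. A match is a description of these letters only. The GAS letters stand in Irf1 (chr10:38417685-38417984, plus strand), the response-element letters in Cxcl10 (chr14:15988816-15989115, plus strand) and Gbp2 (chr2:234005477-234005776, plus strand). The NF-κB letters stand once in Nfkbia (chr6:78597023-78597322, minus strand) and at 2 places in Cxcl1 (chr14:17479272-17479571, minus strand). The 5 were picked for their letters, so they do not show how well letters and routes match. Icam1, which also rose, held the GAS letters and no NF-κB letters, and Cd74 held the NF-κB letters only.
Irf1: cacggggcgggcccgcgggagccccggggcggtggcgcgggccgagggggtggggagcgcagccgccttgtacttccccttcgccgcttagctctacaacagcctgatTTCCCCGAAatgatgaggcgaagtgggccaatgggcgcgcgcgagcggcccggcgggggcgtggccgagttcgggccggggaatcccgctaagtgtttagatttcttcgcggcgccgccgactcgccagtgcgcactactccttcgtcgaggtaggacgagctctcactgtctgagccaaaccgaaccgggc
Cxcl10: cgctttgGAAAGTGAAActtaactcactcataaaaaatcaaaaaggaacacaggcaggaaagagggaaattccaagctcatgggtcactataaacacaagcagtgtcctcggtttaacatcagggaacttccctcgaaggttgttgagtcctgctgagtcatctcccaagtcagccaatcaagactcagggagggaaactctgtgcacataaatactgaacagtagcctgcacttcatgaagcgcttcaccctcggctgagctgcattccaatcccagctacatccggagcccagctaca
Gbp2: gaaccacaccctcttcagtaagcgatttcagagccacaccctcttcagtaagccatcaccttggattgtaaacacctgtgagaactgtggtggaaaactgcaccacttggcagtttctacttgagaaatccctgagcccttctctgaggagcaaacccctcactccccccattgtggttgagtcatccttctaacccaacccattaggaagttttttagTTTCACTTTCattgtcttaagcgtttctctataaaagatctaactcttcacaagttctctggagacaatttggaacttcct
Nfkbia: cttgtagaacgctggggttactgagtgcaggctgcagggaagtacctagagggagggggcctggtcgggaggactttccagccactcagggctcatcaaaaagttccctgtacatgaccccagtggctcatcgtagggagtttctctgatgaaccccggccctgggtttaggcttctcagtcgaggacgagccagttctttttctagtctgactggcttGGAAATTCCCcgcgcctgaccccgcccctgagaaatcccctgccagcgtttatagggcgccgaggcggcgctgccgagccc
Cxcl1: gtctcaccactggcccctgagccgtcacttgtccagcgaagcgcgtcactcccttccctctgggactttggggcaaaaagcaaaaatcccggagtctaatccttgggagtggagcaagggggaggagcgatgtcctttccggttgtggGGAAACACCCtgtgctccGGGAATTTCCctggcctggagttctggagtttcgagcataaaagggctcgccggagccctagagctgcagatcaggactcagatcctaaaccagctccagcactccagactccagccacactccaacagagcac

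Of the 33469 promoter windows in the table, 3.92% held the response-element letters, 8.87% the GAS letters and 1.53% the NF-κB letters. A window was found for 11733 of the 14217 genes tested, and of these 3.21% held the response-element letters, 7.53% the GAS letters and 1.85% the NF-κB letters. Among the 39 genes with a window that had risen by at least 3 on the log2 scale, 17 (43.6%) held the response-element letters, 11 (28.2%) the GAS letters and 11 (28.2%) the NF-κB letters. The response-element letters were in 12 of 18 antiviral effectors and 8 of 13 genes of MHC class I processing with a window, and the NF-κB letters in 0 and 3 of them. In contrast, 5 of 13 NF-κB subunit and feedback genes held the NF-κB letters and 0 of 13 the response-element letters. The GAS letters were in 7 of the 18 antiviral effectors, 1 of the 13 class I genes and 2 of the 13 NF-κB genes. Of the 92 genes with a window that fell by at least 1, 1 held the response-element letters, 8 (8.7%) the GAS letters and 0 the NF-κB letters.

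Values are log2 intensities made with RMA, and differences are cytokine-plus-BRD0476 minus untreated at 12 h, with ± the standard error from limma over 14217 genes and n = 3 arrays per group. Calls need an adjusted p below 0.05, and an exact test of 3 arrays against 3 cannot go below a two-sided p of 0.1, so calls rest on the model. Arrays of the 2 groups correlated with each other at r between 0.977 and 0.982. In bulk RNA, fewer cells of a kind and less RNA per cell cannot be told apart. Ins1 had 14.60, 14.60 and 14.54 in cytokine-plus-BRD0476 cells against 14.59, 14.59 and 14.55 in untreated cells, near the top of the scale in every array.

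The 3 cytokine-plus-BRD0476 arrays did not lie equally close together. A set of 463 genes, chosen on the cytokine-plus-DMSO arrays of both times as at least 0.5 lower in replicate 3 than in replicates 1 and 2, stood at a median of 0.18, 0.73 and 0.86 above the untreated mean in replicates 1, 2 and 3 of cytokine-plus-BRD0476 cells, against -0.00, -0.03 and 0.03 in untreated cells. The 3′ probe set of beta-actin exceeded its 5′ probe set by 1.77, 2.33 and 2.31 in cytokine-plus-BRD0476 cells, against 1.25, 1.17 and 1.53 in untreated cells. For Gapdh the same difference was 0.08, 0.10 and 0.13 in cytokine-plus-BRD0476 cells, against -0.05, -0.04 and 0.02 in untreated cells. Of the 463 genes, 194 were called up and 3 down. Their part in the comparison was not tested. Genes marked below as among them are also given with replicate 1 as the only cytokine-plus-BRD0476 array, or array by array. Replicate 1 alone is an alternative chosen after seeing the data.

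**Figure D1:**
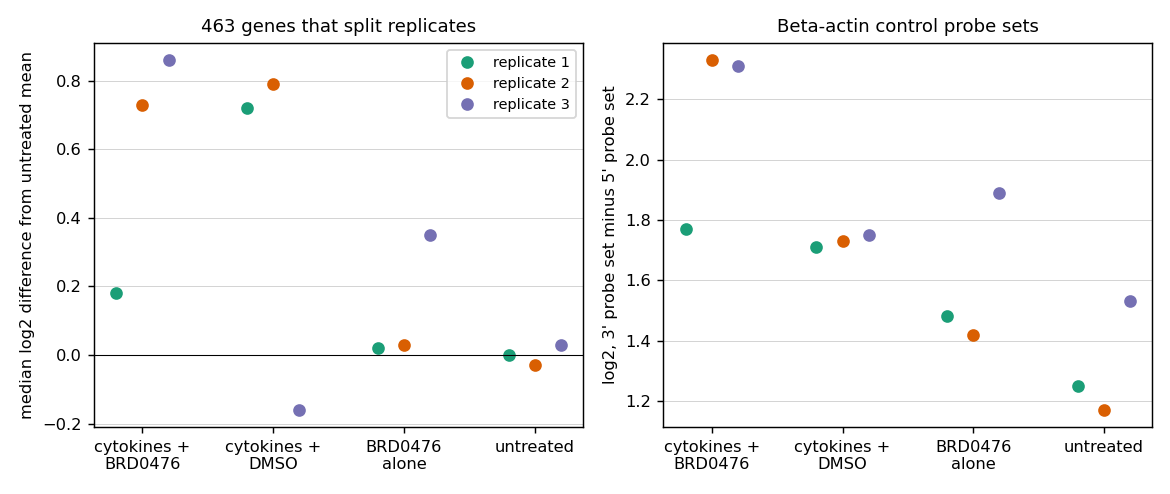
Left, the median log2 difference from the untreated 12 h mean over 463 genes that split the replicates of cytokine-plus-DMSO cells, and right, the log2 difference between the 3′ and 5′ beta-actin probe sets, for each array of the 4 groups at 12 h. Replicates 2 and 3 of cytokine-plus-BRD0476 cells lie at 0.73 and 0.86 on the left and at 2.33 and 2.31 on the right, above every untreated array.

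At 12 h, cells given cytokines with BRD0476 still differed from untreated cells at 4579 of 14217 genes (32.2%), of which 1726 rose (12.1%) and 2853 fell (20.1%). The rises were fewer and larger: 380 genes (2.67%) rose by at least 2-fold and 116 (0.816%) fell by as much, 53 rose by at least 8-fold and 0 fell by as much. Genes whose 95% interval lay wholly inside -0.5 to 0.5 numbered 9690 (68.2%), which are called held within 0.5 of untreated. Counts of list members below are to be read beside these shares of all genes. The typical gene was 0.163 from untreated in cytokine-plus-BRD0476 cells and 0.222 from untreated in cytokine-plus-DMSO cells, as the median absolute log2 difference. With replicate 1 as the only cytokine-plus-BRD0476 array, 941 genes rose and 1184 fell, and 315 and 100 did so by at least 2-fold.

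Of the 12 largest rises, all but an uncharacterized locus were immune or interferon-responsive genes, and most were dim in untreated cells. Cxcl1, a chemokine that draws neutrophils, had 11.31, 11.21 and 11.07 in cytokine-plus-BRD0476 cells against 3.47, 3.83 and 3.65 in untreated cells, a difference of 7.55 ± 0.23 (adjusted p = 5.91e-16). Cd69, an early activation marker of lymphocytes, had 11.62, 11.54 and 11.41 in cytokine-plus-BRD0476 cells against 3.94, 3.71 and 3.99 in untreated cells, a difference of 7.65. That the arrays of the 2 groups did not overlap was a condition for choosing the 12 largest rises. The first place belonged to LOC100910973, an uncharacterized locus, at 11.85, 12.62 and 12.64 in cytokine-plus-BRD0476 cells against 3.75, 3.79 and 4.12 in untreated cells. Mx2, Rsad2 and Isg15, antiviral genes of the interferon response, rose by 6.88, 6.64 and 6.55, and Ubd, which encodes the ubiquitin-like protein FAT10, by 6.08. Ifgga2l1, another interferon-responsive gene, rose by 6.36.

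The largest falls were smaller and mixed in function. Adora2b, an adenosine receptor, had 7.25, 7.08 and 7.23 in cytokine-plus-BRD0476 cells against 9.56, 9.39 and 9.65 in untreated cells, a difference of -2.34 ± 0.09 (adjusted p = 1.23e-14). Akr1c19, an aldo-keto reductase, had 6.83, 7.0 and 6.75 in cytokine-plus-BRD0476 cells against 9.06, 9.09 and 9.06 in untreated cells. The arrays within each group lay close together, and no overlap between the groups was a condition of this choice too. Slc15a2, a peptide transporter, fell by 2.12, Mpv17l by 2.02 and Mertk, a receptor tyrosine kinase, by 2.01. The next falls were Hs3st6, a heparan sulfate sulfotransferase, at -1.78, Ccng2, cyclin G2, at -1.77, the galanin receptor Galr1 at -1.74, Nt5e, which makes adenosine outside the cell, at -1.66, Frmd5 at -1.65, Cimap3 at -1.61 and Tcp11l2 at -1.60.

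Part of these falls was also seen with BRD0476 and no cytokines. BRD0476 alone changed 287 genes up (2.02%) and 376 down (2.64%) against the same untreated arrays at 12 h. Adora2b was -0.90 from untreated with BRD0476 alone, Akr1c19 -0.75, Slc15a2 -0.90, Mpv17l -1.41, Ccng2 -0.73, Nt5e -0.84 and Tcp11l2 -0.76, and all 7 were called there. Mertk (-0.15), Hs3st6 (0.23), Galr1 (-0.36), Frmd5 (-0.38) and Cimap3 (-0.02) were not called with BRD0476 alone. In cytokine-plus-DMSO cells, Mpv17l was -0.89 and Mertk -3.15 from untreated. The comparisons share the untreated arrays, so these values stand side by side without a test between them.

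**Figure D2:**
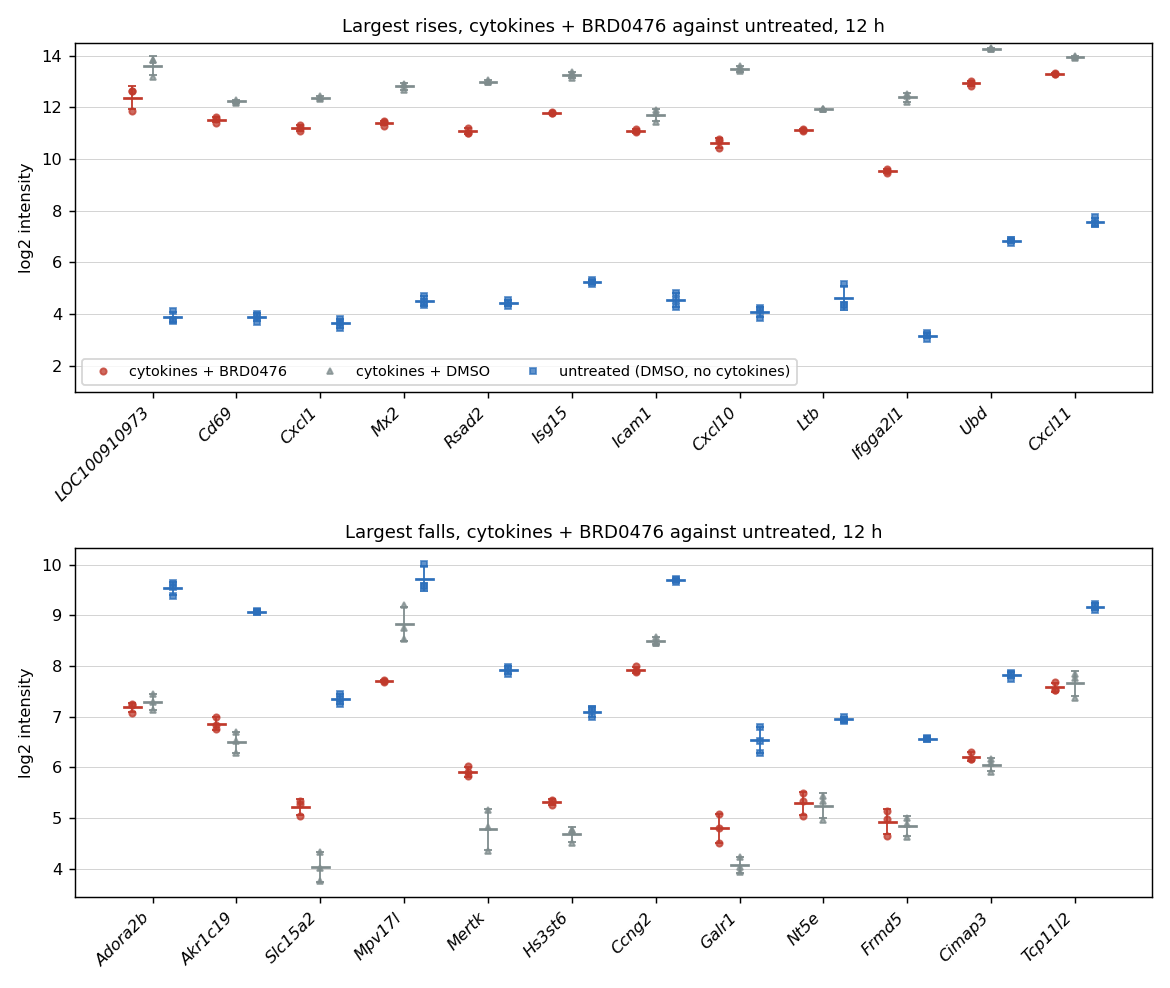
Log2 intensity of each array at 12 h (points) with mean and SD (bars) for the 12 largest rises and the 12 largest falls. For each gene, cytokine-plus-BRD0476 cells stand left, cytokine-plus-DMSO cells in the middle and untreated cells right; Cd69 reaches 11.41 to 11.62 with cytokines and BRD0476 against 3.71 to 3.99 untreated, and Adora2b 7.08 to 7.25 against 9.39 to 9.65.

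Of 22 measured genes of interferon signalling, 12 rose and 3 fell, with a median difference of 0.61 in cytokine-plus-BRD0476 cells and of 0.89 in cytokine-plus-DMSO cells. Irf1, the factor that carries the interferon-gamma signal onward and whose promoter is printed above, had 10.77, 10.80 and 10.88 in cytokine-plus-BRD0476 cells against 8.17, 8.31 and 8.23 in untreated cells. That is 2.58 ± 0.11 above untreated (adjusted p = 1.35e-13), where cytokine-plus-DMSO cells were 5.08 above it. The factors of the interferon response stayed high: Irf7 rose by 4.48, Irf9 by 2.49 and Stat2 by 2.46. Usp18, which removes ISG15 from proteins and restrains the receptor, rose by 5.59. The feedback inhibitor Socs1 was much nearer to untreated cells, at 4.74, 5.29 and 5.25 in cytokine-plus-BRD0476 cells against 4.60, 4.63 and 4.14 in untreated cells, a difference of 0.64 ± 0.20 (adjusted p = 0.0188) beside 4.13 in cytokine-plus-DMSO cells. Its groups did not overlap, yet without replicate 2, without replicate 3 of cytokine-plus-BRD0476 cells or without replicate 3 of untreated cells the adjusted p was 0.0894, 0.0827 and 0.112. The kinase Jak2 rose by 0.64, and Jak1 (-0.13) and Ifngr1 (0.13) were not called.

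Downstream of these factors, all 8 measured interferon-induced GTPases rose, with a median of 4.22 in cytokine-plus-BRD0476 cells beside 7.16 in cytokine-plus-DMSO cells. These enzymes attack intracellular microbes. Gbp2 had 8.25, 8.23 and 7.93 in cytokine-plus-BRD0476 cells against 3.40, 4.02 and 3.47 in untreated cells, a difference of 4.51 ± 0.38 (adjusted p = 8e-09). Mx1 rose by 4.83, Gbp7 by 4.29 and Gbp4 by 2.18. Of 25 antiviral effectors, 24 rose and 1, Oasl, was not called (0.40, adjusted p = 0.0834), with a median of 2.62 beside 4.80 in cytokine-plus-DMSO cells. Isg15, the ubiquitin-like modifier, had 11.80, 11.77 and 11.78 in cytokine-plus-BRD0476 cells against 5.15, 5.32 and 5.23 in untreated cells. Rtp4 rose by 5.48 and Oas1a, an RNA-sensing synthetase, by 5.0. At the other end, Ifitm3, which blocks viral entry, was only 0.47 above untreated in cytokine-plus-BRD0476 cells and 5.13 above it in cytokine-plus-DMSO cells.

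Members of 1 chemokine family parted ways. Cxcl10, a ligand of the receptor CXCR3 that draws T cells, had 10.76, 10.71 and 10.41 in cytokine-plus-BRD0476 cells against 3.87, 4.18 and 4.23 in untreated cells, a difference of 6.54 ± 0.47. Cxcl11, another CXCR3 ligand, had 13.29, 13.31 and 13.27 in cytokine-plus-BRD0476 cells against 7.48, 7.76 and 7.49 in untreated cells. Cxcl9, the third ligand, which was singled out after its values were seen, had 4.27, 4.40 and 4.28 in cytokine-plus-BRD0476 cells, 12.31, 12.32 and 12.18 in cytokine-plus-DMSO cells and 3.97, 4.33 and 4.40 in untreated cells. Its arrays with cytokines and BRD0476 lay among the untreated ones (difference 0.08), far below the arrays with cytokines and DMSO.

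Among 12 chemokines that draw neutrophils and monocytes, 7 rose and 0 fell, with a median of 1.13 beside 2.32 in cytokine-plus-DMSO cells. After Cxcl1, the largest were Ccl20 at 5.06, Cxcl2 at 4.38 and Ccl2 at 2.68. Ccl5 was at 0.17 in cytokine-plus-BRD0476 cells, which was not called, and at 1.88 in cytokine-plus-DMSO cells. Of 16 cytokine ligands, 9 rose and 1 fell. Ltb, lymphotoxin beta, had 11.17, 11.12 and 11.09 in cytokine-plus-BRD0476 cells against 4.34, 5.15 and 4.37 in untreated cells. Tnf rose by 2.09, Tnfsf10, which encodes the death ligand TRAIL, by 1.86, and Il15 by 0.94. Il33 fell by 0.40. On the cell surface, 4 of 10 adhesion and costimulation genes rose and 1 fell: Icam1, which binds leukocyte integrins, by 6.55, Cd40 by 5.27 and the "do not eat" signal Cd47 by 0.83. The inhibitory ligand Cd200 fell by 0.71.

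Both routes of antigen presentation had genes above untreated. For MHC class I, which shows peptides from inside the cell to CD8 T cells, 14 of 16 genes rose and 0 fell, with a median of 1.5 beside 2.49 in cytokine-plus-DMSO cells. Tap1, a subunit of the peptide transporter, had 10.50, 10.56 and 10.65 in cytokine-plus-BRD0476 cells against 7.23, 7.40 and 7.34 in untreated cells, a difference of 3.25 ± 0.09. The immunoproteasome subunits Psmb8 and Psmb9 rose by 2.88 and 2.37, Tap2 by 2.39 and B2m, the light chain of class I, by 1.41. The chaperones Pdia3 (0.03) and Canx (-0.08) were not called.

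For MHC class II, which presents outside antigens to CD4 T cells, 4 of 11 genes rose and 0 fell, with a median of 0.09 beside 1.55 in cytokine-plus-DMSO cells. Cd74, the invariant chain, had 7.15, 7.29 and 7.19 in cytokine-plus-BRD0476 cells against 3.54, 3.62 and 3.30 in untreated cells, a difference of 3.72 ± 0.13, and RT1-Da rose by 2.37. RT1-DMb rose by 0.99 and the lysosomal protease Lgmn by 0.30. Ciita, the master activator of class II, was not called at 0.09 in cytokine-plus-BRD0476 cells, where cytokine-plus-DMSO cells stood at 1.55. RT1-Bb had 4.77, 5.37 and 5.41 in cytokine-plus-BRD0476 cells against 5.09, 5.26 and 5.10 in untreated cells, with overlapping arrays. RT1-Db1 had 4.07, 4.19 and 4.61 in cytokine-plus-BRD0476 cells against 4.04, 4.15 and 4.11 in untreated cells, also overlapping.

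Of 16 NF-κB subunits and feedback genes, 12 rose and 1 fell, with a median of 1.67 beside 2.04 in cytokine-plus-DMSO cells. Nfkbia, the inhibitor that NF-κB itself induces, had 11.10, 11.01 and 11.03 in cytokine-plus-BRD0476 cells against 8.07, 8.09 and 8.02 in untreated cells. That difference was 2.99 ± 0.08 (adjusted p = 1.05e-16) beside 3.29 in cytokine-plus-DMSO cells. Nfkb2, the p100 subunit, had 10.52, 10.96 and 11.18 in cytokine-plus-BRD0476 cells against 5.60, 5.99 and 6.05 in untreated cells, and is 1 of the 463 genes above. Its difference was 5.0, and 4.64 with replicate 1 alone. The antiapoptotic Birc3 rose by 3.93, Nfkbiz by 3.22, Relb by 2.94 and the deubiquitinase Tnfaip3 by 2.50. Birc2 fell by 0.29. Among 22 components of IL-1 and TNF receptor signalling, 6 rose, 2 fell and 14 were held within 0.5. The kinase Ripk2 rose by 3.95, the decoy receptor Il1r2 by 0.93 and Traf3 by 0.63. Irak2 differed by 0.46, a call lost without replicate 1 of either group.

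Further defence groups had a few members far from untreated. Of 10 complement genes, 4 rose and 2 fell. C1r, a protease of the classical pathway, rose by 2.45, its inhibitor Serping1 by 2.43 and the central component C3 by 1.81. C1s was 1.01 above untreated in cytokine-plus-BRD0476 cells, at 4.50, 4.59 and 4.47 against 3.38, 3.41 and 3.74 in untreated cells, and 6.40 above it in cytokine-plus-DMSO cells. Among 15 genes of nitric oxide and arginine metabolism, 5 rose and 3 fell. Nos2, the inducible nitric oxide synthase, had 6.05, 6.17 and 6.16 in cytokine-plus-BRD0476 cells against 6.19, 6.18 and 6.12 in untreated cells, on its only probe set. Its difference of -0.04 (95% interval -0.27 to 0.19) stood beside -0.02 in cytokine-plus-DMSO cells, whose arrays had 6.21, 6.14 and 6.11. Whether this probe set reports Nos2 RNA was not tested, so nothing is read from it about induction of the gene. Ass1, which regenerates arginine, rose by 2.44 and is 1 of the 463 genes. It had 9.32, 9.77 and 9.87 in cytokine-plus-BRD0476 cells against 7.31, 7.14 and 7.18 in untreated cells. Ddah1 rose by 1.14 and Gch1, which supplies the synthase's cofactor, by 0.83, and Ddah2 fell by 0.84.

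Of 28 antioxidant genes and NRF2 targets, 8 rose, 6 fell and 19 were held within 0.5, a held share near the 68.2% of all genes. Sod2, the mitochondrial superoxide dismutase, had 12.55, 12.62 and 12.64 in cytokine-plus-BRD0476 cells against 11.02, 11.08 and 11.10 in untreated cells. The metallothioneins Mt2A and Mt1 rose by 1.89 and 1.13 and the glutathione transferase Gsta4 by 1.17. Mt2A was also at 0.76 with BRD0476 alone.

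Beta-cell transcription factors were mostly close to untreated, and the granule genes were mixed. Ins1 differed by 0.00 (95% interval -0.11 to 0.11) and Ins2 by -0.01 (-0.14 to 0.11), and in cytokine-plus-DMSO cells they stood at -0.01 and -0.05. Both lie near the highest intensity in the table, 24852.9, where the arrays may not show a change, so nothing is read from them about insulin RNA. Of 16 beta-cell transcription factors, 13 were held within 0.5, beside 68.2% of all genes, 1 rose and 2 fell. Nkx6-1, a factor of beta-cell identity, had 8.74, 8.85 and 8.85 in cytokine-plus-BRD0476 cells against 8.83, 8.69 and 8.78 in untreated cells. The groups overlapped, with a difference of 0.05 (-0.19 to 0.28), where cytokine-plus-DMSO cells were at -1.76. Mafa, an activator of insulin transcription, had 12.20, 11.98 and 12.02 in cytokine-plus-BRD0476 cells against 12.20, 12.24 and 12.22 in untreated cells, a difference of -0.15 (-0.29 to -0.01) that was not called (adjusted p = 0.103), beside -0.98 in cytokine-plus-DMSO cells. Nkx2-2, among the 463 genes, was at 0.04 in cytokine-plus-BRD0476 cells and -1.13 in cytokine-plus-DMSO cells. It had 10.27, 10.62 and 10.52 in cytokine-plus-BRD0476 cells, 9.59, 9.48 and 8.82 in cytokine-plus-DMSO cells and 10.43, 10.42 and 10.44 in untreated cells.

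Pdx1, another identity factor, rose by 0.32, and was at 0.34 with BRD0476 alone. Myt1 fell by 0.50 and Pax6 by 0.25, the second call being lost without replicate 3 of cytokine-plus-BRD0476 cells (adjusted p = 0.0959). Of 17 genes of insulin processing and granules, 12 were held within 0.5, a share near that of all genes, 4 rose and 3 fell. Of the 4 that rose, Ptprn, Pcsk1n and Vgf belong to the 463 genes above. Ptprn, a granule membrane protein, had 9.77, 10.86 and 11.21 in cytokine-plus-BRD0476 cells against 9.36, 9.30 and 9.46 in untreated cells, a difference of 1.24 that was 0.39 with replicate 1 alone (adjusted p = 0.762). Pcsk1n, at 1.19, was 0.22 with replicate 1 alone, and Vgf, at 1.16, was 0.52. The calls of Ptprn and Pcsk1n were also lost without any 1 of the untreated arrays. Ero1b rose by 0.42. Sytl4, which docks granules, fell by 1.0.

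**Figure D3:**
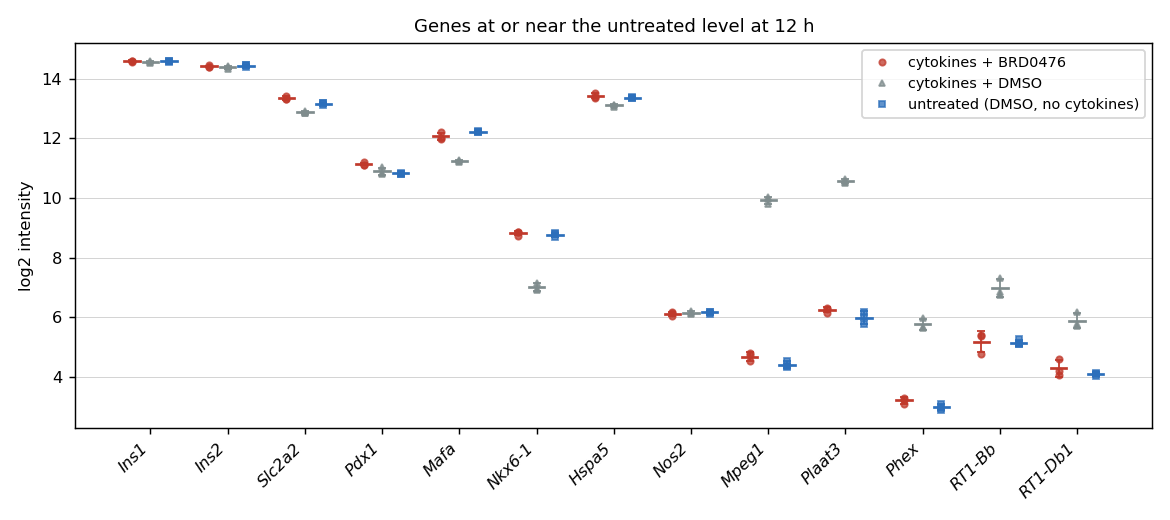
Log2 intensity of each array at 12 h (points) with mean and SD (bars) for 13 genes that ended near untreated, with cytokine-plus-BRD0476 cells left, cytokine-plus-DMSO cells in the middle and untreated cells right. Nkx6-1 lies at 8.74 to 8.85 with cytokines and BRD0476 and at 8.69 to 8.83 untreated, while Slc2a2 and Pdx1 lie slightly above untreated. Ins1, Ins2 and Nos2 are drawn, though nothing is read from their probe sets.

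Receptors and channels that tune secretion were more often lower than higher. Of 19 genes of glucose sensing and secretion receptors, 11 fell and 4 rose, with a median of -0.37 beside -0.68 in cytokine-plus-DMSO cells. Gipr, the receptor of the incretin GIP, had 7.52, 7.13 and 7.17 in cytokine-plus-BRD0476 cells against 8.60, 8.43 and 8.31 in untreated cells, a difference of -1.18 ± 0.11 (adjusted p = 6.69e-08). Glp1r, the other incretin receptor, fell by 0.75, the prolactin receptor Prlr by 1.12, Gpd2 of the glycerol phosphate shuttle by 1.01, and the calcium channels Cacna1d and Cacna1c by 0.87 each. The glucose transporter Slc2a2 had 13.42, 13.31 and 13.30 in cytokine-plus-BRD0476 cells against 13.17, 13.19 and 13.12 in untreated cells. Of the others that rose, the glucagon receptor Gcgr was at 0.78, the somatostatin receptor Sstr3 at 0.55 and Abcc8, a subunit of the ATP-sensitive potassium channel, at 0.51, and its partner Kcnj11 was not called (0.15). Slc2a2 rose by 0.19, a call lost without replicate 1 of cytokine-plus-BRD0476 cells (adjusted p = 0.0571) and without replicate 3 of untreated cells (0.0537). Among 23 SNARE and vesicle fusion genes, 5 rose, 4 fell and 14 were held within 0.5. Syt5 and Stx1a, at 1.37 and 0.98, are among the 463 genes and were 0.35 and 0.34 with replicate 1 alone, and both calls were also lost without any 1 of the untreated arrays. Syt9 rose by 0.85 and Syt13 fell by 0.71.

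In the stress arm run by ATF4 and CHOP more genes rose than fell, and the endoplasmic reticulum chaperones moved little. Of 19 genes of the stress arm, 11 rose, 2 fell and 6 were not called. The median was 0.40 in cytokine-plus-BRD0476 cells and 0.20 in cytokine-plus-DMSO cells. The 2 that fell were Asns at -0.22 and Psat1 at -0.21. Chac1, which degrades glutathione, had 9.25, 9.14 and 9.12 in cytokine-plus-BRD0476 cells against 7.05, 7.04 and 7.21 in untreated cells, a difference of 2.07 ± 0.10. Trib3 rose by 1.32 and Atf4, the factor itself, by 0.87. All 3 were also up with BRD0476 alone, at 1.66, 0.95 and 0.83. Ddit3, which encodes the proapoptotic factor CHOP, had 8.88, 8.49 and 8.53 in cytokine-plus-BRD0476 cells against 7.79, 7.75 and 7.83 in untreated cells, a difference of 0.85. It was at 0.09 with BRD0476 alone. Atf5, at 0.93, is among the 463 genes and was 0.59 with replicate 1 alone (adjusted p = 0.295). Of 19 chaperone genes, 6 rose, 4 fell and 16 were held within 0.5. Their median was 0.07 in cytokine-plus-BRD0476 cells and -0.22 in cytokine-plus-DMSO cells. Hspa5, the main chaperone, had 13.52, 13.39 and 13.36 in cytokine-plus-BRD0476 cells against 13.36, 13.37 and 13.34 in untreated cells. Sdf2l1 fell by 0.85, Sel1l by 0.36 and Pdia6 by 0.27, and Xbp1 was at 0.30, a call lost without replicate 2 or 3 of cytokine-plus-BRD0476 cells or any 1 of the untreated arrays. Of 13 heat shock proteins, 12 were held within 0.5, and Dnajb1 fell by 0.18.

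Some genes lay on the opposite side of untreated from cytokine-plus-DMSO cells, and 4 of them are given here. Pfkfb3, which drives glycolysis, had 7.81, 7.64 and 7.66 in cytokine-plus-BRD0476 cells against 8.95, 8.89 and 8.95 in untreated cells, a difference of -1.23, where cytokine-plus-DMSO cells were at 1.35 and BRD0476 alone at -0.93. Nr4a1, an immediate early nuclear receptor, had 6.96, 7.20 and 7.16 in cytokine-plus-BRD0476 cells against 4.97, 5.34 and 5.34 in untreated cells. Its difference of 1.89 stood beside -0.56 in cytokine-plus-DMSO cells and 1.49 with BRD0476 alone. Bmal1, the core activator of the circadian clock, had 5.48, 4.75 and 4.64 in cytokine-plus-BRD0476 cells against 6.49, 6.54 and 6.40 in untreated cells. It was at -1.52, beside 0.44 in cytokine-plus-DMSO cells, which was not called (adjusted p = 0.0619), and -1.45 with BRD0476 alone. E2f2, a driver of S phase, was at -0.86 beside 0.47 in cytokine-plus-DMSO cells. These 4 genes were grouped here for those values, so a direct difference from cytokines with DMSO follows from the choice. It was -2.58 for Pfkfb3, 2.45 for Nr4a1, -1.96 for Bmal1 and -1.33 for E2f2. How many of all genes lay on opposite sides was not counted.

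Of 19 clock genes, 5 rose and 3 fell. Per2, a clock repressor, rose by 0.57 and Nfil3 by 0.53, and Nr1d1, at 0.82, is among the 463 genes and was 0.58 with replicate 1 alone (adjusted p = 0.375). Of 30 immediate early genes, 10 rose and 6 fell, among them Ier3 by 1.95 and Junb by 1.79, while Zfp36, at 1.54, is among the 463 genes and was 1.02 with replicate 1 alone (adjusted p = 0.138). Among 24 genes of glycolysis, 4 rose and 7 fell. Gpd1, which makes glycerol phosphate, fell by 1.53 and Arrdc4, a glucose-responsive relative of Txnip, by 0.92, and with BRD0476 alone they were at -0.59 and -0.72. Pdk2, at 0.84, is among the 463 genes and was 0.51 with replicate 1 alone.

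In lipid metabolism, 10 of 21 genes of cholesterol synthesis and uptake rose and 3 fell. Insig1, which holds back the sterol factor SREBP, rose by 0.66 and Hsd17b7 by 0.74, and the cholesterol exporter Abca1 fell by 1.17. Srebf2, the sterol factor, was at 0.93, or 0.58 with replicate 1 alone (adjusted p = 0.172). Of 27 fatty acid genes, 5 rose and 5 fell. Lpl, lipoprotein lipase, rose by 0.89 and was at -0.82 with BRD0476 alone, Acadm of fatty acid oxidation fell by 0.75 and the desaturase Fads1 by 0.51. Pnpla2, at 0.50, lost its call without replicate 2 or 3 of cytokine-plus-BRD0476 cells or replicate 2 of untreated cells.

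Genes of cell division were lower as groups. Of 29 mitosis and spindle genes, 23 fell and 1 rose, with a median of -0.28 beside -0.30 in cytokine-plus-DMSO cells. Cenpf, a kinetochore protein, had 8.82, 8.62 and 8.58 in cytokine-plus-BRD0476 cells against 9.45, 9.52 and 9.58 in untreated cells. The checkpoint kinase Bub1b fell by 0.65, Nusap1 by 0.58 and cyclin B1, Ccnb1, by 0.56. Of 38 genes of DNA replication and G1/S, 25 fell and 0 rose, with a median of -0.33 in both groups given cytokines. Cdc45, part of the replicative helicase, fell by 0.85, E2f8 by 0.81 and the licensing factor Cdt1 by 0.77. With replicate 1 alone, 7 of the mitosis genes and 16 of the replication genes fell. Of 43 respiratory chain and ATP synthase subunits, 9 fell, 1 rose and 40 were held within 0.5, with a median of -0.10. The share that fell was near the 20.1% of all genes. Sdha fell by 0.34 and Sdhb by 0.24, while Ndufs1, at -0.23, and Cox4i1, at 0.37, lost their calls without replicate 2 or 3 of cytokine-plus-BRD0476 cells, and Ndufs1 also without replicate 1 or 2 of untreated cells.

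Death genes were mixed: of 26, 6 rose and 4 fell. Casp4, an inflammatory caspase, rose by 2.81 and the death receptor Fas by 2.66. Bcl2l11, which encodes the proapoptotic BIM, had 8.06, 8.08 and 8.05 in cytokine-plus-BRD0476 cells against 9.21, 9.18 and 9.28 in untreated cells. It was at -1.16, beside -0.19 in cytokine-plus-DMSO cells and -0.56 with BRD0476 alone. Bak1, at 1.55, is among the 463 genes and was 0.95 with replicate 1 alone (adjusted p = 0.194). Of 14 p53-linked growth arrest genes, 4 rose, among them Gadd45b by 2.05, Cdkn1a by 1.60 and Pml by 0.90, and 2 fell, among them Sesn1 by 0.79. Cdkn1a is also among the 463 genes, with 8.91, 9.29 and 9.71 in cytokine-plus-BRD0476 cells against 7.74, 7.62 and 7.74 in untreated cells. The deubiquitinase Usp9x, described as an interaction partner of BRD0476, fell by 0.26, a call lost without replicate 3 of cytokine-plus-BRD0476 cells (adjusted p = 0.0653).

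Of 19 ubiquitin genes and deubiquitinases, Usp9x among them, 7 rose and 2 fell. Ube2l6, which attaches ISG15, rose by 1.60 and Usp25 by 1.15, while Uba1 and Uchl1, at 1.24 and 0.83, are among the 463 genes and were 0.42 and 0.35 with replicate 1 alone. Of 13 iron genes, 2 rose and 5 fell. The iron exporter Slc40a1 fell by 1.27, Ireb2 by 0.53 and the transferrin receptor Tfrc by 0.41, and the calls of Cp, at 0.30, and Usp9x were lost in some alternatives. Of 16 genes of the xenobiotic response, 2 rose, Cyp1b1 by 1.05 and Abcc2 by 0.66.

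Over the 5 lists of markers of other cell kinds, 7 were called up and 5 down. These lists hold 17, 16, 16, 11 and 10 measured genes, and of all genes tested 12.1% rose and 20.1% fell. Of 17 leukocyte markers, Lcp1 rose by 0.41, and the defining Ptprc was at 3.73 in cytokine-plus-BRD0476 cells and 3.85 in untreated cells, near the lower quartile of all values, 3.84. The summed intensity of the leukocyte list was 517.7 to 603.5 in cytokine-plus-BRD0476 cells against 468.1 to 482.5 in untreated cells. For exocrine and ductal markers it was 3566 to 3779 in cytokine-plus-BRD0476 cells against 2514 to 2621 in untreated cells, and for endothelial markers 540.1 to 575.2 against 688.1 to 712.7 in untreated cells. For other islet hormone cells it was 1107 to 1336 in cytokine-plus-BRD0476 cells against 1352 to 1548 in untreated cells, and for fibroblasts 3695 to 3921 against 3839 to 3899.7 in untreated cells. Of these sums, the fibroblast ones overlapped between the groups and the other 4 did not. Among all single genes, 19.4% did not overlap and were higher, and 29.0% did not overlap and were lower. They add linear intensities, so the brightest members weigh most, and a sum does not show a shift of its whole list. Krt7 had 11.71, 11.68 and 11.78 in cytokine-plus-BRD0476 cells against 11.18, 11.15 and 11.21 in untreated cells. In the same 2 groups, Esam had 8.27, 8.14 and 8.30 against 8.80, 8.75 and 8.77. Gcg had 10.01, 10.20 and 9.89 against 10.40, 10.45 and 10.22. Of 16 exocrine and ductal markers, Muc1, Krt7 and Krt19 rose by 1.73, 0.54 and 0.37, and 9 lay at or under the lower quartile in both groups. Vwf (0.55) and Pecam1 (0.36) rose and Kdr (-0.56) and Esam (-0.54) fell among 11 endothelial markers. Vim (0.58) rose and Pdgfra (-0.57) and Acta2 (-0.37) fell among 16 fibroblast markers. Of 10 markers of other islet hormone cells, Gcg, glucagon, fell by 0.32. The calls of Acta2, Pecam1, Krt19, Kdr, Gcg and Lcp1 were each lost without at least 1 single array. Their part in the other differences was not tested.

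**Figure D4:**
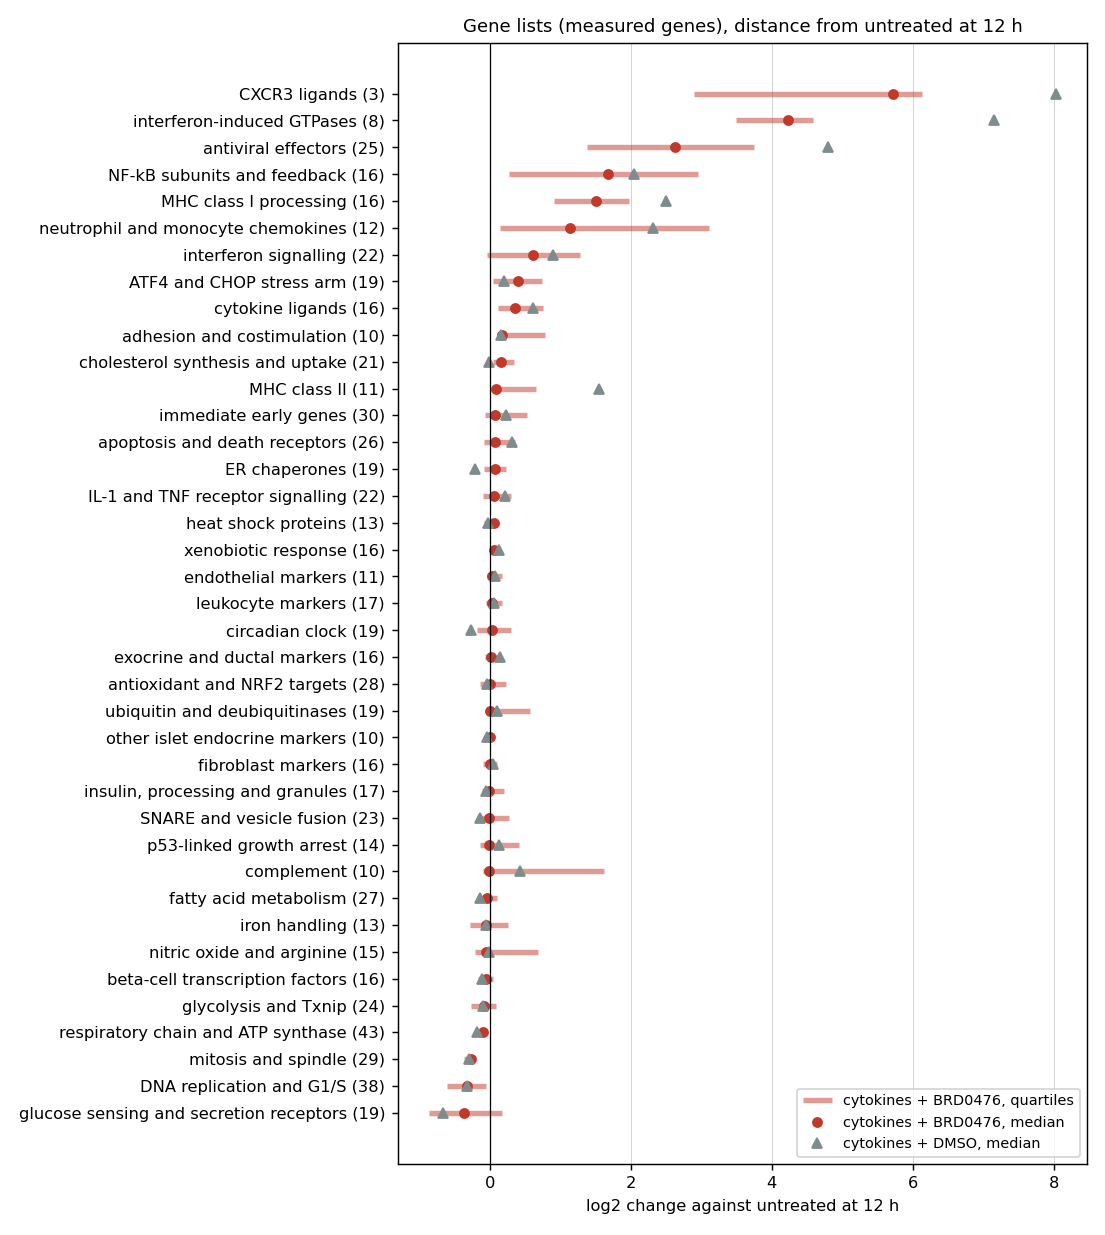
Median log2 difference from untreated at 12 h for each gene list, with the number of measured genes in brackets; red points and bars give the median and quartiles in cytokine-plus-BRD0476 cells and grey triangles the median in cytokine-plus-DMSO cells. Interferon-induced GTPases lie at 4.22 and 7.16 and the receptors of secretion at -0.37 and -0.68.

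With replicate 1 as the only cytokine-plus-BRD0476 array, the immune lists stood as follows: 8 of 8 GTPases, 21 of 25 antiviral effectors, 13 of 16 class I genes, 11 of 16 NF-κB genes and 11 of 22 genes of interferon signalling were up. The stress arm of ATF4 and CHOP then had 7 up and 0 down, and the chaperones 2 up and 1 down. Glucose sensing and secretion receptors had 9 down and 4 up, cholesterol genes 5 up and 3 down, insulin and granule genes 1 up and 1 down, and the respiratory chain 0 up and 1 down. Fewer calls follow from fewer arrays as well, so these counts are not a measure of size.

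Genes chosen for their cytokine response on the 6 h arrays, none of which enter this comparison, show how far the response was still visible. Of 887 genes (6.24% of those tested) that cytokines with DMSO had raised by at least 2-fold at 6 h, 594 (67.0%) were up in cytokine-plus-BRD0476 cells at 12 h, 40 down and 167 held within 0.5. Their median was 0.65 in cytokine-plus-BRD0476 cells and 1.15 in cytokine-plus-DMSO cells. Of 717 genes (5.04%) lowered as much at 6 h, 563 (78.5%) were down, 16 up and 169 held within 0.5, with medians of -0.52 in cytokine-plus-BRD0476 cells and -0.83 in cytokine-plus-DMSO cells. Of the 139 genes raised by at least 3 at 6 h, 127 were still up, with medians of 2.49 and 4.33 in the same 2 groups, and 4 were held within 0.5.

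Among those 139 genes, the ones nearest to untreated at 12 h included immune genes. Mpeg1, a pore-forming protein of macrophages, had 4.80, 4.73 and 4.53 in cytokine-plus-BRD0476 cells against 4.36, 4.34 and 4.55 in untreated cells, a difference of 0.27 (95% interval 0.03 to 0.52) beside 5.50 in cytokine-plus-DMSO cells. Plaat3, a phospholipase, had 6.28, 6.32 and 6.16 in cytokine-plus-BRD0476 cells against 6.00, 5.76 and 6.19 in untreated cells, 0.27 beside 4.58 in cytokine-plus-DMSO cells. In both genes the 2 groups overlapped. Phex, a membrane peptidase, was at 0.23 beside 2.78, and Adm, the peptide adrenomedullin, at -0.09 beside 0.96. Syncrip-ps2 (-0.23) and LOC100911534 (0.11) complete the 8, with RT1-Bb and RT1-Db1 above.

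Only 8 genes were moved at least 2-fold by BRD0476 alone at 6 h, 3 up (0.0211%) and 5 down (0.0352%). Pcp4l1 had 9.52, 9.86 and 10.00 in cytokine-plus-BRD0476 cells against 8.27, 8.28 and 8.30 in untreated cells, a rise of 1.51. Nqo1, an NRF2 target, was at -0.41, beside 0.54 with BRD0476 alone and -1.50 in cytokine-plus-DMSO cells, and its call was lost without replicate 2 of either group. Gfra1 was at 0.31 and not called. Cyp4a8 fell by 1.41 and Spp2 by 0.93.

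Set directly against cytokines with DMSO at 12 h, cytokines with BRD0476 left 2323 genes higher (16.3%) and 1504 lower (10.6%). All 8 interferon-induced GTPases and all 25 antiviral effectors were lower, as were 13 of 16 class I, 8 of 11 class II and 9 of 16 NF-κB genes. Irf1 was 2.50 below cytokines with DMSO, Socs1 3.5 and Nfkbia 0.30. Of the NF-κB list, 1 gene was higher, Nfkb2 by 0.84. It is among the 463 genes, with 10.52, 10.96 and 11.18 in cytokine-plus-BRD0476 cells against 10.21, 10.39 and 9.54 in cytokine-plus-DMSO cells, and the arrays nearest each other, 10.52 and 10.39, lay closer than the means. Relb (0.20) and Tnip1 (0.05) were not called. ER chaperones were higher at 13 of 19. Of the 887 genes raised at 6 h, 488 were lower and 58 higher than with DMSO, and of the 717 lowered genes, 385 were higher and 28 lower. Cxcl11 (-0.65, adjusted p = 0.0958) and Ccl20 (-0.31, adjusted p = 0.344) were not called.

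At 6 h, with other arrays, 2009 genes rose (14.1%) and 1959 fell (13.8%) in cytokine-plus-BRD0476 cells against untreated cells. Across the 14217 genes, the distances at 12 h and 6 h had a Pearson r of 0.816 and a Spearman rho of 0.570, over genes, which are not independent replicates. The distance differed between the times at 1084 genes (7.62%), 305 of them further up at 12 h (2.15%) and 779 further down (5.48%). The second count was 468 without replicate 2 and 458 without replicate 3 of cytokine-plus-BRD0476 cells, and 451 without replicate 2 of untreated cells. Of the antiviral effectors, 17 of 25 were further up at 12 h and 1 further down. Ifit2, an antiviral RNA-binding protein, had 6.86, 6.88 and 6.64 in cytokine-plus-BRD0476 cells against 3.24, 3.74 and 3.32 in untreated cells at 12 h, a distance of 3.36, beside 0.81 at 6 h. Ifit1 stood at 3.74 at 12 h and 1.81 at 6 h, Apol9a at 2.54 and 0.55, and RGD1309362 at 2.78 and 0.80. Of MHC class II, 6 of 11 genes were further down at 12 h and 0 further up: Cd74 stood at 3.72 at 12 h and 5.51 at 6 h and RT1-Da at 2.37 and 4.21. Genes of cholesterol synthesis and uptake stood higher against untreated at 12 h than at 6 h at 13 of 21. At 6 h, 1 gene of that list was up and 12 were down, with a median of -0.29, beside 0.15 at 12 h.

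**Figure D5:**
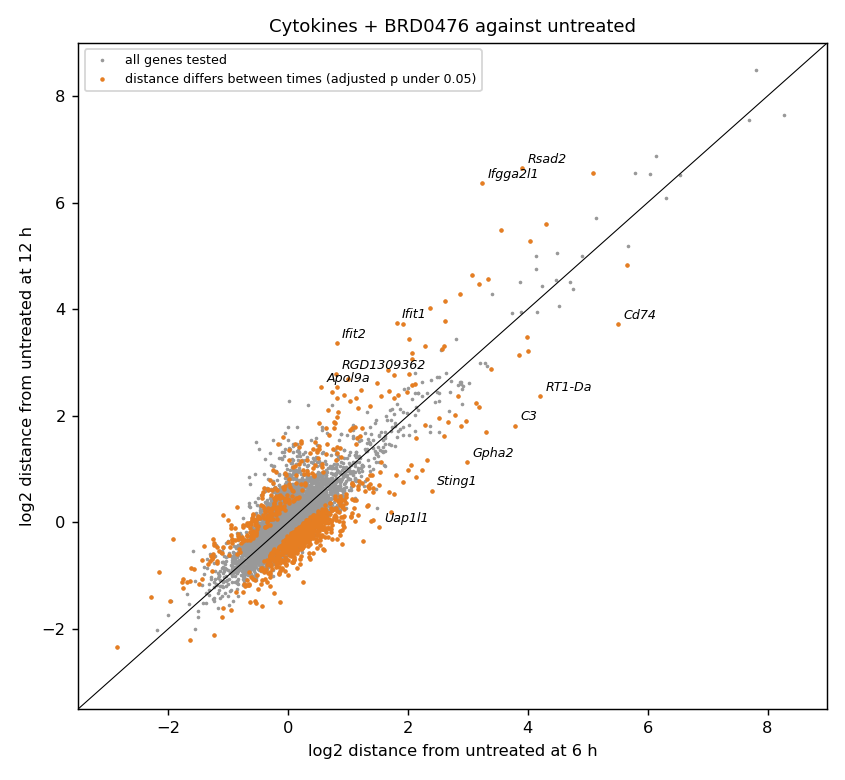
Log2 distance of cytokine-plus-BRD0476 cells from untreated cells at 6 h (horizontal axis) and at 12 h (vertical axis) for 14217 genes, with the line of equal distance; orange points are the 1084 genes whose distances differ at an adjusted p under 0.05. Rsad2 and Ifit2 lie above the line and Cd74, C3 and Sting1 below it.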

How the data were processed

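RNA of INS-1E cells was measured on single-colour Affymetrix arrays, 24 in all, 3 for each of 8 groups taken from the sample titles. The deposited intensity values are linear and were made with RMA, per the submitters' processing notes. The RMA version and the chip definition are not given in the sources used here. They were taken to log2 with no further normalization. The number of arrays limits the precision (median standard error 0.102).

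Of 31099 probe sets, the 20826 with 1 gene symbol, controls left out, gave 14217 genes, 436 with several symbols were not used, and the probe set with the highest mean stood for each of 4525 genes with several. limma 3.58.1 in R 4.3.3 fitted a mean for each of the 8 groups over 24 arrays (16 residual degrees of freedom), with Benjamini-Hochberg adjustment over all genes and calls at an adjusted p under 0.05. Intervals are 95%. The fit was tested on simulated data. Figures were drawn with matplotlib 3.10.9 in Python 3.11.15.

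The members, lists and tests were chosen with earlier results of these data known. Genes named were the 12 largest rises and falls whose arrays do not overlap, up to 4 called members of each of 39 lists with the largest change (up to 2 where none was called), the 8 genes nearest to untreated among those moved by at least 3 with cytokines at 6 h, up to 4 in each direction of those moved by BRD0476 at 6 h, the 6 largest differences between times in each direction, and a panel of 17. Named outside that rule, after their values were seen, were Cxcl9, Stat2, Jak1, Ifngr1, Gbp4, Oasl, Ifitm3, Ccl5, Il33, B2m, Pdia3, Canx, Ciita, Relb, Tnfaip3, Birc2, Tnip1, Nkx2-2, Ero1b, Glp1r, Gcgr, Sstr3, Abcc8, Kcnj11, Cacna1c, Cacna1d, Asns, Psat1, Ptprc, Gadd45a, Gadd45g, Cd55 and C1qa. Alternatives covered normalization, pseudocount, probe set choice, dim genes, array weights, the arrays fitted, a replicate block and each array left out. Same-numbered arrays of the groups compared deviated together at r of -0.16, -0.08 and 0.07, so the numbers were not taken as pairs.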

Additional observations from a re-analysis of the deposited data

Results flagged for a closer look

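Of 49 genes examined, 23 are listed here because their distance from untreated cells differed between 12 h and 6 h, as tested by the interaction in limma. Values are the 12 h distance minus the 6 h distance on the log2 scale. Antiviral and immune genes further up at 12 h were Ifgga2l1 by 3.12, Rsad2 by 2.73, Ifit2 by 2.56, Apol9a by 1.99, RGD1309362 by 1.97, Ifit1 by 1.93, Icam1 by 1.46 and Irf1 by 0.52 (adjusted p = 0.047). Genes nearer to untreated at 12 h included C3 at -1.96, the hormone subunit Gpha2 at -1.87, RT1-Da at -1.84, Sting1 at -1.81, Cd74 at -1.79, Uap1l1 at -1.61 and Ddit3 at -1.28. Hspa5 was at -0.36. Nkx6-1 was at 1.06, with a distance of 0.05 at 12 h and -1.01 at 6 h. Among the largest falls, Adora2b was at 0.52, and Slc15a2 at -0.88, Frmd5 at -0.68, Hs3st6 at -0.67, Akr1c19 at -0.58 and Cimap3 at -0.54.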

How the results depend on the processing

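A change of direction was counted only for named genes called in the main fit or in the alternative, and none was found in 17 alternative settings. Uncalled genes could change sign: RT1-Bb, at 0.04, had 4.77 in replicate 1 of cytokine-plus-BRD0476 cells against an untreated mean of 5.15. Of 170 called genes, 42 lost the call in at least 1 setting, most of them without replicates 2 and 3 of cytokine-plus-BRD0476 cells. That setting gave 941 genes raised and 1184 lowered, 99 of the cytokine-raised genes within 0.5, set medians of 0.54 and -0.47, 965 genes lower than with cytokines alone, and 122 further up and 132 further down at 12 h. Array weights gave 2793 raised genes, 252 of the cytokine-raised genes within 0.5, and 1564 further up and 2695 further down at 12 h. With only the arrays of the groups compared, 1310 genes were higher than with cytokines alone, and with 16 added before the log, 5 genes counted as moved by BRD0476 at 6 h. The median of the p53-linked list was 0.06 with dim genes left out, against -0.02. Without the genes that split replicates, 1539 rose and 2849 fell. The cause was not tested.

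With 1 array left out at a time, raised genes ranged between 1344 and 1791, lowered genes between 2217 and 2989, those past 2-fold between 327 and 473 up and 109 and 140 down, and those within 0.5 between 8726 and 9292. Of the sets chosen at 6 h, 528 to 599 were raised and 519 to 556 lowered, 143 to 156 and 147 to 166 lay within 0.5, and the medians ran from 0.63 to 0.68 and from -0.56 to -0.5. The BRD0476-moved genes stayed at 8. Against cytokines alone, 1894 to 2243 genes were higher and 1277 to 1484 lower, and 206 to 401 were further up and 451 to 1101 further down at 12 h. The replicate block gave 1695 raised and 2811 lowered genes.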

Other observations

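Genes of the growth arrest and complement lists not described above moved in both directions. Gadd45a, a stress-induced growth arrest gene, rose by 0.50 in cytokine-plus-BRD0476 cells, beside 0.75 in cytokine-plus-DMSO cells and -0.84 with BRD0476 alone. Its relative Gadd45g was at -0.45, beside 0.07 in cytokine-plus-DMSO cells. Cd55, which protects cells from complement, fell by 0.83 and C1qa by 0.95.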
